A study of Mus musculus with 32 samples.

Results

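The 9 genes of the m6A writer complex and its erasers, of 55421 genes in the count table, were followed through mouse liver after hepatectomy or sham surgery: the writer genes Mettl3, Mettl14, Wtap, Zc3h13, Rbm15, Cbll1 and Mettl16, and the eraser genes Fto and Alkbh5. They were chosen by name for their role, with earlier results of these data known, and each symbol matched 1 gene of the table. N6-methyladenosine (m6A) is the methylated adenosine of mRNA. It is laid down in the nucleus by a complex in which METTL3 carries the catalytic site, METTL14 holds the RNA, and WTAP, ZC3H13, RBM15 and CBLL1 place the enzyme on its targets. METTL16 is a separate methyltransferase that acts on U6 RNA and on hairpins of the Mat2a mRNA, and FTO and ALKBH5 are oxygenases that remove the methyl group.

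The 16 mice gave 32 libraries, 1 IP and 1 input library for each animal. The 4 groups of 4 animals were Mettl14 knockout (KO) after hepatectomy, Flox control (flox) after hepatectomy, KO after sham surgery and flox after sham surgery, at ages of 71 to 77 days. The IP libraries were made with a NEBNext Ultra kit from RNA broken to about 100 nucleotides and enriched with an anti-m6A antibody. The input libraries were made with a TruSeq Stranded mRNA kit from bulk RNA. For the Cre line, the cells in which it acts, the deleted exons and the time after surgery, no statement was found in the labels. A level in an IP library mixes how much of a transcript was present with how much of it was pulled down. In bulk liver, fewer cells of a type and less RNA per cell cannot be told apart.

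Library totals were 7133726 to 24297713 counts in IP and 8177746 to 12533871 in input. Where a library had no count of a gene, up to 3 counts were taken as possible, which is 0.123 to 0.421 CPM (the count scaled to a common library total) in IP and 0.239 to 0.367 CPM in input. These limits and the intervals cover counting error only, since PCR copies were not marked by molecular identifiers. Genes with at least 10 counts numbered 6676 to 16846 in IP (median 11393) and 4176 to 9354 in input (median 5292), and IP library 4 of the hepatectomy KO group had the lowest total and the fewest such genes. The 6 hepatocyte markers summed to 11718 to 47522 CPM in IP and 35316 to 51090 CPM in input, and none of the 6 was at 0 in any group.

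The genes differed widely in level. On a scale of CPM per kilobase of exon, averaged over 16 IP libraries, the order was Zc3h13 (42.4), Rbm15 (20.4), Alkbh5 (12.7), Wtap (12.5), Cbll1 (8.62), Fto (1.47), Mettl3 (1.04), Mettl16 (0.426) and Mettl14 (0.213). Zc3h13 lay above 96.5% of the 23399 genes with any IP count, and Mettl14 above 30.5%. Zc3h13 was above Rbm15 in 16 of 16 animals and Cbll1 above Fto in 16 of 16, whereas Alkbh5 and Wtap had nearly the same mean and Wtap was the higher of the pair in 12 of 16. Input gave the same order for the first 3 genes, with 52.9 for Zc3h13, 28.2 for Rbm15 and 15.3 for Alkbh5. Below them in input came Cbll1 (10.5), Wtap (9.72), Fto (2.58), Mettl16 (0.670), Mettl3 (0.108) and Mettl14 (0). The regulatory subunits Zc3h13 and Rbm15 thus had the highest levels of the 9 genes in both kinds of library. The catalytic pair, Mettl3 and Mettl14, was among the lowest. This is an order of read levels: IP also depends on pull-down, and in input Mettl3 had counts in only 2 of 16 libraries and Mettl14 in 0.

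**Figure D1:**
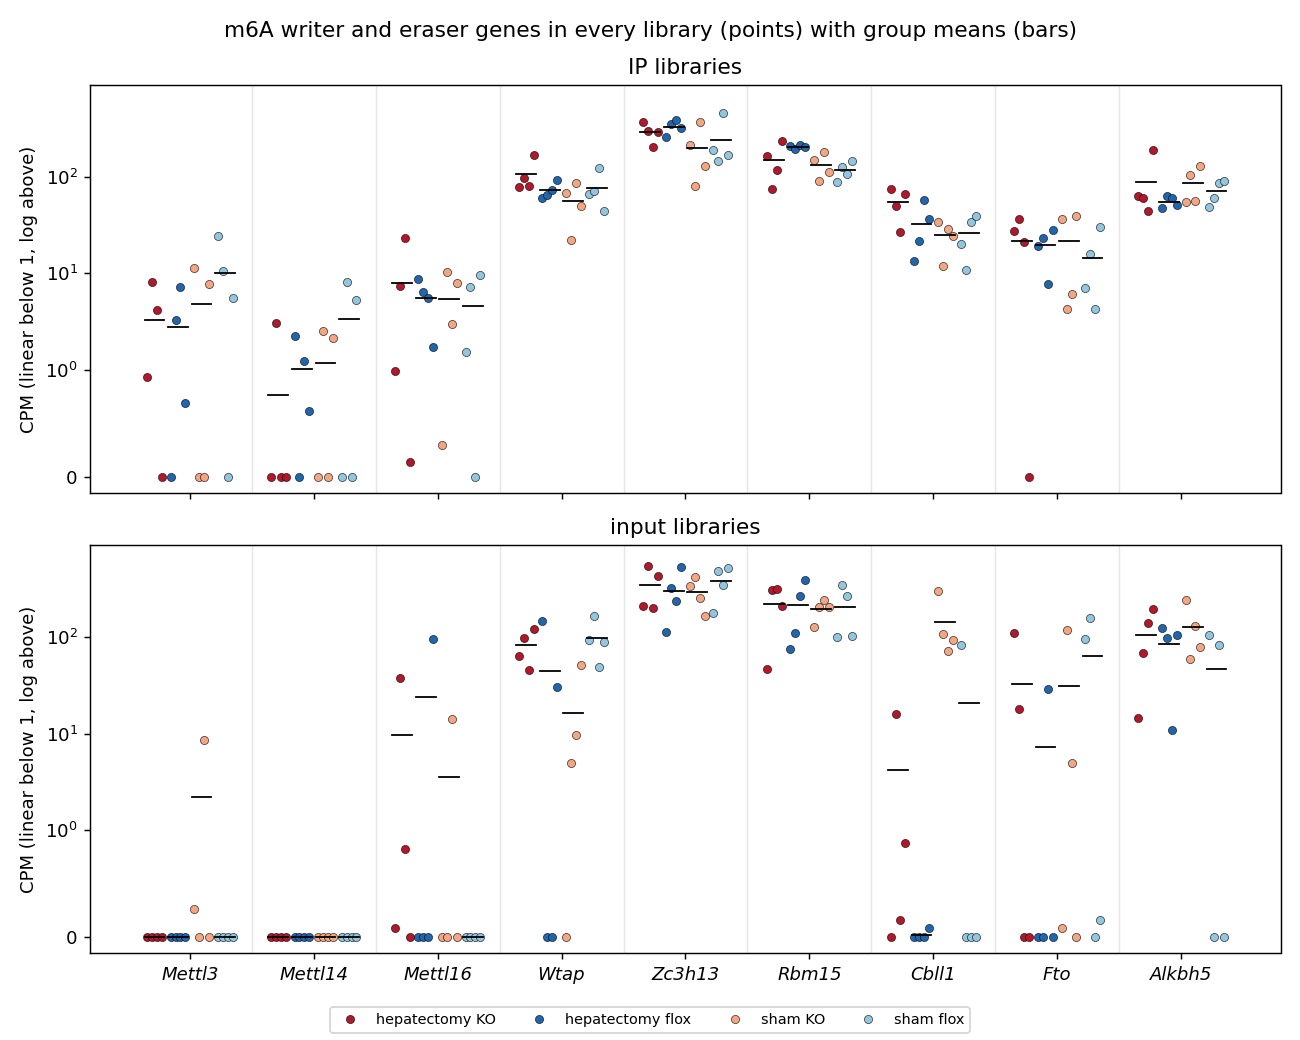
CPM of the 9 genes in each library (points) with the mean of each group of 4 (bars), IP above and input below, on an axis that is linear below 1 CPM and logarithmic above. Zc3h13 and Rbm15 were present in all 32 libraries, Mettl14 was at 0 in all 16 input libraries, and 5 of the 9 genes had points both at 0 and above 10 CPM in input.

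Many input values were either 0 or large. Of the 144 values (9 genes in 16 input libraries), 60 were 0, 6 were 1 to 9, 6 were 10 to 99 and 72 were 100 or more. In IP the 144 values fell into 15, 3, 19 and 107. The same was seen in other genes: among 12642 genes with a mean IP level within the range of these 9, 52.9% of input values were 0 and 33.1% were 100 or more, against 41.7% and 50% for the 9 genes. A single input library held 3 to 8 of the 9 genes, and an IP library 6 to 9. A mean and SD of such values describes few libraries, so the counts of libraries are given beside it.

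**Figure D2:**
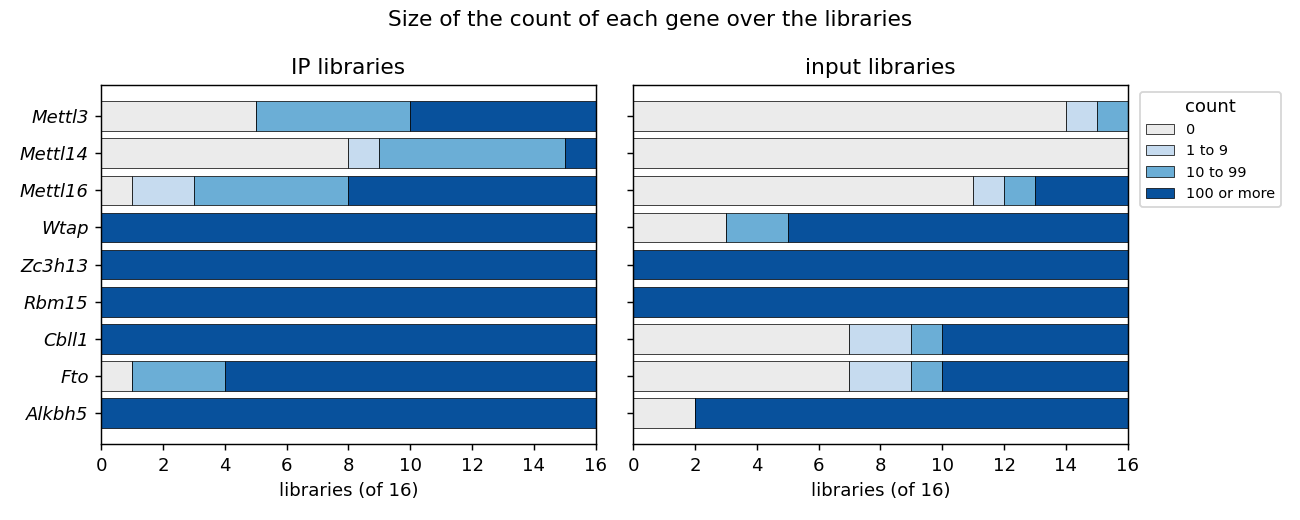
Number of libraries, of 16 IP (left) and 16 input (right), in which each gene had a count of 0, 1 to 9, 10 to 99 or 100 or more. Wtap, Zc3h13, Rbm15, Cbll1 and Alkbh5 had at least 100 counts in 16 of 16 IP libraries, and only Zc3h13 and Rbm15 did so in input.

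Mettl14 (ENSMUSG00000028114, chromosome 3, 123368297 to 123386108, minus strand, 7 exon blocks; positions as in the count table, which names no build) is the targeted gene. Its IP counts were 0, 60, 0 and 0 in hepatectomy KO and 33, 0, 22 and 9 in hepatectomy flox livers. After sham surgery they were 0, 38, 0 and 52 in KO and 0, 124, 0 and 86 in flox livers. All 16 input counts were 0. Counts were thus found in 3 of 8 KO and 5 of 8 flox IP libraries, at 0.971 ± 1.36 CPM in KO and 2.19 ± 2.99 CPM in flox (mean and SD, n = 8 each). The difference of -1.22 CPM was within the spread (exact two-sided permutation p = 0.342). It was -0.37 CPM without sham flox replicate 2 (exact permutation p = 0.683) and -0.78 CPM without sham flox replicate 4 (exact permutation p = 0.629). The genotype labels could not be checked from this gene with these counts. Since the deleted exons are not given, counts in KO libraries may also lie outside them.

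Mettl3 (ENSMUSG00000022160, chromosome 14, 52294841 to 52305128, minus strand, 10 exon blocks), the catalytic subunit, was read in IP and almost not in input. Its IP counts were 16, 159, 68 and 0 in hepatectomy KO and 0, 53, 128 and 10 in hepatectomy flox livers. After sham surgery they were 189, 0, 0 and 190 in KO and 271, 161, 0 and 91 in flox livers. Each group held at least 1 library at 0, and the groups overlapped. In input only 2 libraries held it, both sham KO, with 3 and 87 counts. Its exons share 933 bases with Tox4 on the opposite strand, a chromatin-associated protein gene with 6181 IP and 2898 input counts. No strand setting of the counting is stated, so reads of the shared bases may be assigned to either gene.

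Mettl16 (ENSMUSG00000010554, chromosome 11, 74770830 to 74828525, plus strand, 14 exon blocks) was low in IP and held by few inputs. IP counts were 17, 144, 384 and 1 in hepatectomy KO and 129, 102, 99 and 25 in hepatectomy flox livers. After sham surgery they were 5, 152, 55 and 193 in KO and 17, 111, 0 and 157 in flox livers. The IP groups overlapped. Input counts were 1, 401, 10 and 0 in hepatectomy KO and 0, 0, 0 and 1137 in hepatectomy flox livers, while sham KO had 1 library with 144 counts and sham flox none. The library with 1137 counts alone held most of the 1693 input counts of this gene.

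Among the regulatory subunits, Zc3h13 (ENSMUSG00000022000, chromosome 14, 75284373 to 75344426, plus strand, 20 exon blocks) anchors the complex in the nucleus. Its IP levels were 374, 299.9, 205 and 291 CPM in hepatectomy KO and 262, 352, 391 and 322 CPM in hepatectomy flox livers. Sham KO livers had 215, 80.3, 372 and 131 CPM, and sham flox livers 189, 147, 460 and 168 CPM. All 4 groups overlapped, and 1 library of each sham group stood above the other 3. Input levels spanned 112 to 544 CPM over the 16 animals (median 333).

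Rbm15 (ENSMUSG00000048109, chromosome 3, 107325421 to 107333673, minus strand, 2 exon blocks), an RNA-binding subunit that recruits the complex to its sites, was nearly constant in one group. Its IP levels were 164, 75.6, 118 and 236 CPM in hepatectomy KO and 208, 196, 216 and 203 CPM in hepatectomy flox livers. Of the 4 hepatectomy KO values, 3 were below every hepatectomy flox value and the other one was above them. The value above them came from replicate 4, the IP library with the lowest total and the fewest genes with at least 10 counts. Sham KO livers had 151, 90.5, 183 and 113 CPM, and sham flox livers 88.3, 125, 108 and 145 CPM. Every hepatectomy flox value was thus above every sham flox value, and the share of all genes that separate so was not counted. Input levels were 47.2 to 397 CPM (median 209).

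Wtap (ENSMUSG00000060475, chromosome 17, 12966796 to 12994169, minus strand, 11 exon blocks), the subunit that holds the catalytic pair in nuclear speckles, was present in all IP libraries. The levels were 77.7, 98.3, 80.9 and 170 CPM in hepatectomy KO, 60.6, 65.6, 73 and 92.6 CPM in hepatectomy flox, 67.7, 22.0, 87.1 and 49.8 CPM in sham KO, and 66.3, 71.5, 125 and 44.4 CPM in sham flox livers. The IP groups overlapped, and the 170 CPM came from the IP library with the lowest total. In input Wtap averaged 82.9 ± 34.1 CPM in hepatectomy KO, 44.2 ± 69.8 in hepatectomy flox, 16.4 ± 23.4 in sham KO and 99.3 ± 47.9 in sham flox livers (n = 4 each). In input, 2 hepatectomy flox libraries and 1 sham KO library were at 0, and all hepatectomy KO and sham flox inputs had at least 506 counts.

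Cbll1 (ENSMUSG00000020659, chromosome 12, 31484829 to 31499616, minus strand, 6 exon blocks), the E3 ligase homolog HAKAI in the complex, had the widest contrast between groups in input. Input counts were 0, 168, 2 and 11 in hepatectomy KO and 0, 0, 0 and 1 in hepatectomy flox livers. After sham surgery they were 3396, 1204, 731 and 772 in KO and 1027, 0, 0 and 0 in flox livers. All 4 sham KO inputs were above all 4 hepatectomy KO inputs and, apart from sham flox replicate 1, every other input. How many of all genes separate so was not counted. The IP libraries of the same animals did not show this order: they had 75.4, 49.5, 27.1 and 67.3 CPM in hepatectomy KO, 13.4, 21.8, 57.3 and 36.3 CPM in hepatectomy flox, 34.2, 11.8, 29.1 and 24.4 CPM in sham KO, and 20.1, 10.96, 34.4 and 39.5 CPM in sham flox livers. An unnamed gene on the opposite strand, ENSMUSG00000099851, shares 704 exonic bases with Cbll1 and held 615 IP counts and 1 input count.

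Of the erasers, Fto (ENSMUSG00000055932, chromosome 8, 91313525 to 91668439, plus strand, 13 exon blocks), which also acts on m6Am next to the cap, was read in 15 of 16 IP and 9 of 16 input libraries. IP levels were 27.8, 37.1, 21.0 and 0 CPM in hepatectomy KO, 19.2, 23.5, 7.74 and 27.9 CPM in hepatectomy flox, 36.4, 4.23, 6.07 and 39.2 CPM in sham KO, and 7.08, 15.8, 4.23 and 30.3 CPM in sham flox livers. The single 0 was the hepatectomy KO library with the lowest total. Input levels in hepatectomy KO livers were 112 and 18.0 CPM in 2 animals and 0 in the other two, and in hepatectomy flox livers 28.7 CPM in 1 animal and 0 in the other 3. Sham KO inputs had 0.0885, 120, 5.003 and 0 CPM, and sham flox inputs 97.0, 157, 0 and 0.162 CPM.

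Alkbh5 (ENSMUSG00000042650, chromosome 11, 60536381 to 60558512, plus strand, 5 exon blocks), the nuclear eraser, was present in all IP and in 14 of 16 input libraries. IP levels were 62.8, 60.5, 43.9 and 191 CPM in hepatectomy KO, 47.8, 62.7, 60.3 and 51.0 CPM in hepatectomy flox, 55.2, 103, 55.9 and 131 CPM in sham KO, and 49.1, 60.0, 87.4 and 91.3 CPM in sham flox livers. The groups overlapped, with 1 hepatectomy KO library (replicate 4, the IP library with the lowest total) well above the other 3 of its group. Input levels averaged 105 ± 80.1 CPM in hepatectomy KO, 85.4 ± 50.8 in hepatectomy flox, 128 ± 81.1 in sham KO and 47.2 ± 55.2 in sham flox livers (n = 4 each), and the 2 inputs at 0 were both sham flox.

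None of the 9 genes passed the test between KO and flox livers in IP, by edgeR's quasi-likelihood test with Benjamini-Hochberg adjustment over 14020 genes at a threshold of 0.05. After hepatectomy 0 of 9 were called, against 1.5% of all genes, and after sham surgery 0 of 9, against 0.0927%. The median log2 change of the 9 genes was -0.03 after hepatectomy (all genes 0.01) and -0.24 after sham surgery (all genes 0.16). After hepatectomy the lowest adjusted p of the 9 was 0.421, for Rbm15 (log2 change -0.74, SE 0.38, 95% interval -1.52 to 0.04). The interval was -1.32 to 0.43 for Zc3h13, -0.69 to 1.24 for Wtap, -0.59 to 1.42 for Alkbh5 and -0.88 to 1.93 for Cbll1. For Mettl3 it was -4.58 to 4.52 and for Mettl14 -6.09 to 4.64, so both intervals span changes of several fold in either direction. What part library totals had in this was not tested.

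In input, 6 of the 9 genes had enough counts to be tested among 8769, all but Mettl3, Mettl14 and Mettl16. Between KO and flox livers 0 of 6 were called after hepatectomy, against 0.0342% of all genes, and 0 of 6 after sham surgery, against 0.0114%. Cbll1 had the smallest p after hepatectomy (log2 change 7.13, SE 3.15, adjusted p = 0.281 by edgeR). That value sets a summed count of 181 in hepatectomy KO beside a count of 1 in hepatectomy flox livers, and 168 of the 181 came from replicate 2. DESeq2, run as the other tool, called Cbll1 there (log2 change 7.62, adjusted p = 0.0382) and no gene of the 9 after sham surgery.

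**Figure D3:**
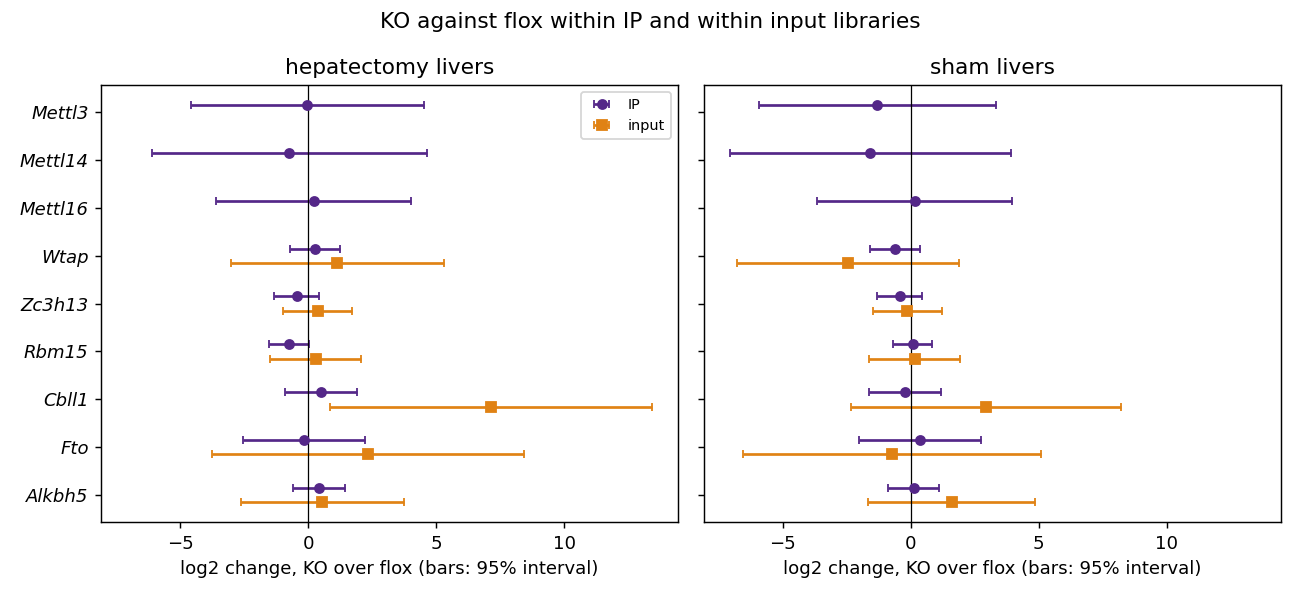
Log2 change of KO over flox livers with its 95% interval for each gene in IP (circles) and input (squares), after hepatectomy (left) and sham surgery (right). All IP intervals include 0; those of Zc3h13, Rbm15, Wtap and Alkbh5 are the narrowest, and Mettl3, Mettl14 and Mettl16 have no input value.

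Surgery gave no call either. Between hepatectomy and sham livers in IP, 0 of 9 genes were called in KO animals, against 0.635% of all genes, and 0 of 9 in flox animals, against 0.0285%. Of the 45 IP tests, 1 had an unadjusted p under 0.05, that of Rbm15 in flox animals. It averaged 206 ± 8.42 CPM in hepatectomy and 117 ± 24.3 CPM in sham livers (log2 change 0.88, SE 0.38, interval 0.10 to 1.66, adjusted p = 0.632 by edgeR, n = 4 each). In KO animals Rbm15 averaged 148 ± 68.6 CPM in hepatectomy and 134 ± 40.7 CPM in sham livers (0.06, SE 0.38). The genotype by surgery interaction called 0 of 9, against 0.0285% of all genes. DESeq2 called 0 of 9 in each of these IP comparisons.

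In input, 0 of 6 genes were called between hepatectomy and sham livers of KO animals, against 0.0228% of all genes, and 0 of 6 in flox animals and in the interaction, where edgeR called 0% of all genes. Cbll1 was at 4.24 ± 7.79 CPM in hepatectomy KO and 143 ± 106 CPM in sham KO livers (log2 change -5.16, SE 2.92, adjusted p = 0.9998 by edgeR, n = 4 each), with no overlap between the groups. In flox animals Cbll1 had a log2 change of -9.35 (SE 3.47, adjusted p = 0.229), which DESeq2 called (-9.89, adjusted p = 0.00184). The counts behind it are 1 in hepatectomy flox and 1027 in sham flox livers, all 1027 in replicate 1, and without that library the edgeR value was 1.497. No other gene of the 6 had an unadjusted p under 0.05 in the 30 input tests.

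IP was then set against input within each group, over all 32 libraries and 14328 genes, with a call at an adjusted p under 0.05 and an absolute log2 of at least 1. The 2 kinds of library came from different kits, so this ratio also carries the difference between them. Of 9 genes, 1 was called in hepatectomy flox livers (1.21% of all genes), and 0 of 9 in hepatectomy KO (0.328%), sham KO (0.0209%) and sham flox livers (0.258%). The call was Cbll1, with 2089 IP counts and 1 input count in hepatectomy flox livers (log2 10.32, SE 2.66, adjusted p = 0.0405 by edgeR). The ratio of pooled CPM was 1566, with an exact interval of 281 to 61879. The same ratio was 13.9 in hepatectomy KO, 0.169 in sham KO and 1.21 in sham flox livers. In sham flox livers 3 of 4 inputs were at 0, and replicate 1, the only animal with both counts, had a log2 ratio of -2.05. The call was lost with each of the 4 hepatectomy flox animals left out (adjusted p = 0.077 to 0.113), with the animal as a replicate block (adjusted p = 0.0756), with no TMM factors (0.0557) and with upper-quartile factors (0.067).

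Mettl14, at 0 in every input, was higher in IP by at least 15.8-fold in hepatectomy KO, 15.99-fold in hepatectomy flox, 16.5-fold in sham KO and 58.7-fold in sham flox livers, with a floor of 3 counts over the group. All 60 hepatectomy KO counts came from replicate 2, and without it there is no bound in that group. In IP, 2 of 4 libraries were at 0 in each sham group and 1 of 4 in hepatectomy flox. The floor, here and for Mettl3 below, limits the input side only, so these folds are not bounds over animals. Mettl3 was higher in IP by at least 63.9-fold in hepatectomy KO, 47.7-fold in hepatectomy flox and 146-fold in sham flox livers. In sham KO livers, with 379 IP and 90 input counts, its ratio was 2.32 (exact interval 1.84 to 2.95, counting error only). This ratio mixes animals: 87 of the input counts came from replicate 3, whose IP count was 0. The IP counts came from replicates 1 and 4, and only replicate 1 had both, with a log2 ratio of 5.41. Neither Mettl14 nor Mettl3 passed the IP over input test of any group in edgeR, and DESeq2 called Mettl3 and Mettl16 in sham flox livers. Zc3h13 had a pooled IP over input ratio of 0.861 in hepatectomy KO, 1.10 in hepatectomy flox, 0.651 in sham KO and 0.611 in sham flox livers. That of Rbm15 was 0.601 in hepatectomy KO, 0.971 in hepatectomy flox, 0.690 in sham KO and 0.594 in sham flox livers. Wtap varied more, with 1.16 in hepatectomy KO, 1.60 in hepatectomy flox, 4.11 in sham KO and 0.744 in sham flox livers. Alkbh5 had 0.674 in hepatectomy KO, 0.645 in hepatectomy flox, 0.685 in sham KO and 1.59 in sham flox livers. These pooled ratios include animals with an input at 0. For Wtap these were 2 of 4 hepatectomy flox and 1 of 4 sham KO inputs, and for Alkbh5 2 of 4 sham flox inputs. In the 2 sham flox animals with both counts, the log2 ratio of Alkbh5 was -1.10 and 0.06.

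Per animal, the log2 ratio of IP to input of Zc3h13 averaged -0.15 ± 0.75 in hepatectomy KO, 0.33 ± 0.85 in hepatectomy flox, -0.71 ± 1.24 in sham KO and -0.72 ± 1.12 in sham flox livers (n = 4 each). That of Rbm15 averaged -0.38 ± 1.72 in hepatectomy KO, 0.25 ± 1.10 in hepatectomy flox, -0.56 ± 0.62 in sham KO and -0.63 ± 0.93 in sham flox livers. The groups overlapped for both genes. The difference in IP over input between groups gave 0 calls of 9 by edgeR in all 5 comparisons, where 0.712% of all genes were called for KO against flox after hepatectomy, 0.0209% after sham surgery, 0.0349% for hepatectomy against sham in KO, 0.181% in flox and 0.0419% for the interaction. The lowest adjusted p among these 45 edgeR values was 0.0835, and 8 had an unadjusted p under 0.05. DESeq2 called Cbll1 for KO against flox after hepatectomy, Mettl16 after sham surgery, Cbll1 for hepatectomy against sham in KO, both of them in flox and Mettl16 for the interaction.

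**Figure D4:**
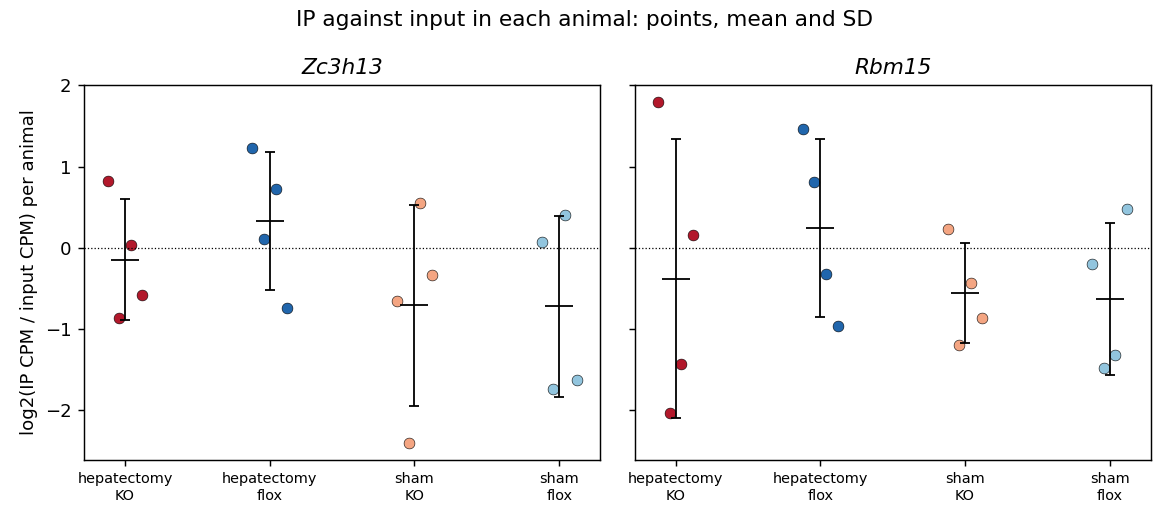
Log2 ratio of IP CPM to input CPM in each animal for Zc3h13 and Rbm15, the 2 genes with counts in every library, with the mean and SD of each group of 4. Points of every group lie on both sides of 0, and the groups overlap.

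The genes of the complex did not all vary together. Over the 16 IP libraries, the highest correlation between any pair of the 9 genes was between Wtap and Zc3h13 (Pearson r of log2(CPM + 1) = 0.75), followed by Zc3h13 with Cbll1 (0.61) and Wtap with Cbll1 (0.57). Mettl3 and Mettl14, which work as a pair, had r = 0.23 over libraries in which either was often at 0. These are descriptions over libraries that share a group structure and differ in depth. Among 9585 genes compared over the same 16 libraries, the gene most like Wtap was Upf2 (r = 0.88), which acts in nonsense-mediated decay, and the gene most like Zc3h13 was Phax (0.81), which exports U RNAs. The nearest to Fto was Akt1 (0.93), a kinase of insulin signalling, to Rbm15 Zfhx4 (0.82), to Cbll1 Stt3b (0.77), to Mettl3 Adssl1 (0.89), to Mettl16 Mier2 (0.90) and to Alkbh5 Rn7s1 (0.87), a 7S RNA gene with near-identical copies whose counts are uncertain. Mettl14 had counts in too few libraries for such a comparison.

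The promoters of Wtap and Zc3h13 are shown because these genes had the highest correlation of any pair. The RefSeq sequences (GRCm38.p6) run from 250 bases before to 50 after a transcript start that the RefSeq table lists, the first entry for each gene, chr17:12992494-12992793 on the minus strand for Wtap and chr14:75284116-75284415 on the plus strand for Zc3h13. Capitals mark the motifs found on either strand.
Wtap: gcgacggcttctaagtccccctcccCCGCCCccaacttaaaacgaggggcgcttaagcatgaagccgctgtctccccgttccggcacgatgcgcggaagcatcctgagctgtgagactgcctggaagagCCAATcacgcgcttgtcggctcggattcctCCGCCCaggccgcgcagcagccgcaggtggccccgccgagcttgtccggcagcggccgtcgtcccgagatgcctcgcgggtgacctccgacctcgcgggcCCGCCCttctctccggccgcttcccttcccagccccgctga
Zc3h13: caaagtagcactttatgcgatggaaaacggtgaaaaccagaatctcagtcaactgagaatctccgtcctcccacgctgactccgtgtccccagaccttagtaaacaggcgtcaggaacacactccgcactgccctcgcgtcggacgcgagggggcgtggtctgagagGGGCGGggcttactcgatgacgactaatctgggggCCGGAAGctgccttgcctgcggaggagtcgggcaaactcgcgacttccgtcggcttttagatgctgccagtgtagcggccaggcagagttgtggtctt
The motifs searched, on both strands, were the CCAAT box (CCAAT), the GC box (GGGCGG), an ETS motif (CCGGAAG) and the TATA box (TATAAA), and none overlaps another in these windows. GGGCGG (or its reverse complement) stands in both promoters and in 35.9% of 27025 RefSeq promoters of the same length. CCAAT is in that of Wtap and in 37.9% of all, and CCGGAAG in that of Zc3h13 and in 9.12% of all. TATAAA is in neither, and in 14.2% of all. Of the 8 genes with an entry, 5 held the GC box, 4 the CCAAT box and 3 the ETS motif.

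The genes that make and use S-adenosylmethionine, the methyl donor of the writers, gave calls within IP. The list was chosen with earlier results of these data known. Of 10 listed, 9 were found and tested in IP. After hepatectomy 1 of 9 was lower in KO than flox livers and 0 higher (1.16% and 0.342% of all genes). The median log2 change of the list was -0.89, against 0.01 over all genes. The call was Gnmt, the glycine N-methyltransferase that uses up S-adenosylmethionine in liver. Its IP level was 113 ± 32.6 CPM in hepatectomy KO and 346 ± 42.5 CPM in hepatectomy flox livers (log2 change -1.88, SE 0.33, adjusted p = 0.00188 by edgeR, n = 4 each), and the groups did not overlap. How many of all genes had no overlap between these groups was not counted. The input level of Gnmt was 306 ± 132 CPM in hepatectomy KO and 243 ± 135 CPM in hepatectomy flox livers. In sham livers Gnmt in IP was at 558 ± 116 CPM in KO and 563 ± 182 CPM in flox (-0.13, SE 0.32), and the interaction was not called (adjusted p = 0.262 by edgeR).

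Hepatectomy against sham in KO animals called 3 of the 9 lower and 0 higher in IP (0.585% and 0.0499% of all genes), with a list median of -0.83 against -0.10 over all genes. Gnmt fell by 2.39 on the log2 scale (SE 0.33, adjusted p = 0.000469). Ahcy, which hydrolyses the S-adenosylhomocysteine left by methylation, was at 109 ± 25.6 CPM in hepatectomy KO and 458 ± 198 CPM in sham KO livers (-2.20, SE 0.38, adjusted p = 0.00449). Mat1a, the S-adenosylmethionine synthetase of adult liver, was at 279 ± 76.6 CPM in hepatectomy KO and 1064 ± 708 CPM in sham KO livers (-2.09, SE 0.45, adjusted p = 0.0266, all by edgeR, n = 4 each). The Mat1a call was lost without hepatectomy KO replicate 1 (adjusted p = 0.0974), without hepatectomy KO replicate 3 (0.0612) and without sham KO replicate 2 (log2 change -1.38, adjusted p = 0.225). In flox animals 0 of 9 were called by edgeR (0.0285% of all genes), and the interaction called 0 of 9 (0.0285%).

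Markers of several cell types also differed between groups in IP. The 6 hepatocyte markers (6 of 6 found) summed to 11718 to 30492 CPM in hepatectomy KO and 31280 to 46296 CPM in hepatectomy flox IP libraries. In sham IP libraries they summed to 28385 to 45640 CPM in KO and 34321 to 47522 CPM in flox livers. In input the same sum was 35316 to 43339 CPM in hepatectomy KO and 40573 to 45572 CPM in hepatectomy flox livers. It was 39366 to 44249 CPM in sham KO and 38712 to 51090 CPM in sham flox inputs. The 2 markers of dividing cells summed to 366 to 1723 CPM in hepatectomy KO and 263 to 441 CPM in hepatectomy flox IP libraries. Their sums were 45.2 to 205 CPM in sham KO and 1.91 to 84.6 CPM in sham flox IP libraries. In input they were 166 to 391 CPM in hepatectomy KO and 134 to 414 CPM in hepatectomy flox livers. Sham inputs had 182 to 434 CPM in KO and 112 to 479 CPM in flox livers, and all input groups overlapped. The stellate cell and fibroblast markers (4 of 4 found) summed to 284 to 501 CPM in hepatectomy KO IP libraries. They summed to 121 to 190 CPM in hepatectomy flox, 137 to 443 CPM in sham KO and 68.7 to 96.0 CPM in sham flox IP libraries. Every hepatectomy KO IP library was thus above every hepatectomy flox IP library, and every sham KO IP library above every sham flox IP library. In input these sums overlapped, at 238 to 386 CPM in hepatectomy KO and 0.253 to 295 CPM in hepatectomy flox livers. Sham inputs overlapped too, at 187 to 359 CPM in KO and 71.9 to 377 CPM in flox livers. The macrophage markers (5 of 5 found) summed to 290 to 695 CPM in hepatectomy KO and 241 to 331 CPM in hepatectomy flox IP libraries. Sham KO IP libraries had 276 to 509 CPM, and these groups overlapped. Sham flox IP libraries had 157 to 261 CPM, all below every sham KO IP library. In input the sham groups overlapped, at 69.0 to 357 CPM in KO and 68.8 to 451 CPM in flox livers. The endothelial markers (3 of 4 found) spanned 50.5 to 280.1 CPM in hepatectomy KO and 58.7 to 145 CPM in hepatectomy flox IP libraries. They spanned 136 to 233 CPM in sham KO and 136 to 193 CPM in sham flox IP libraries. Of the markers in these 5 lists none was at 0 in a whole IP group. In input, Adgre1 and Cd68 were at 0 throughout hepatectomy flox, and Cd68 throughout sham KO and sham flox. The part of these markers in the results was not tested.

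Mat2a, the synthetase outside the adult hepatocyte and a target of METTL16, had the opposite sign and no call. Its IP levels were 87.3, 51.1, 142 and 176 CPM in hepatectomy KO and 16.8, 43.7, 35.3 and 2.27 CPM in hepatectomy flox livers (log2 change 1.95, SE 0.81, adjusted p = 0.262 by edgeR). All 4 hepatectomy KO values were above all 4 hepatectomy flox values, and the share of all genes without overlap was not counted. In input Mat2a had 153, 62.2, 12.9 and 23.9 CPM in hepatectomy KO and 0, 0, 1.16 and 0.0836 CPM in hepatectomy flox livers (7.80, SE 3.25, adjusted p = 0.281). In IP over input, Mat1a was lower in hepatectomy KO livers (log2 -1.84, SE 0.41, adjusted p = 0.012 by edgeR, all genes at a median of 0.31), a call lost with upper-quartile factors (adjusted p = 0.14) and without hepatectomy KO replicate 1 (0.304), 3 (0.0648) or 4 (0.283).

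**Figure D5:**
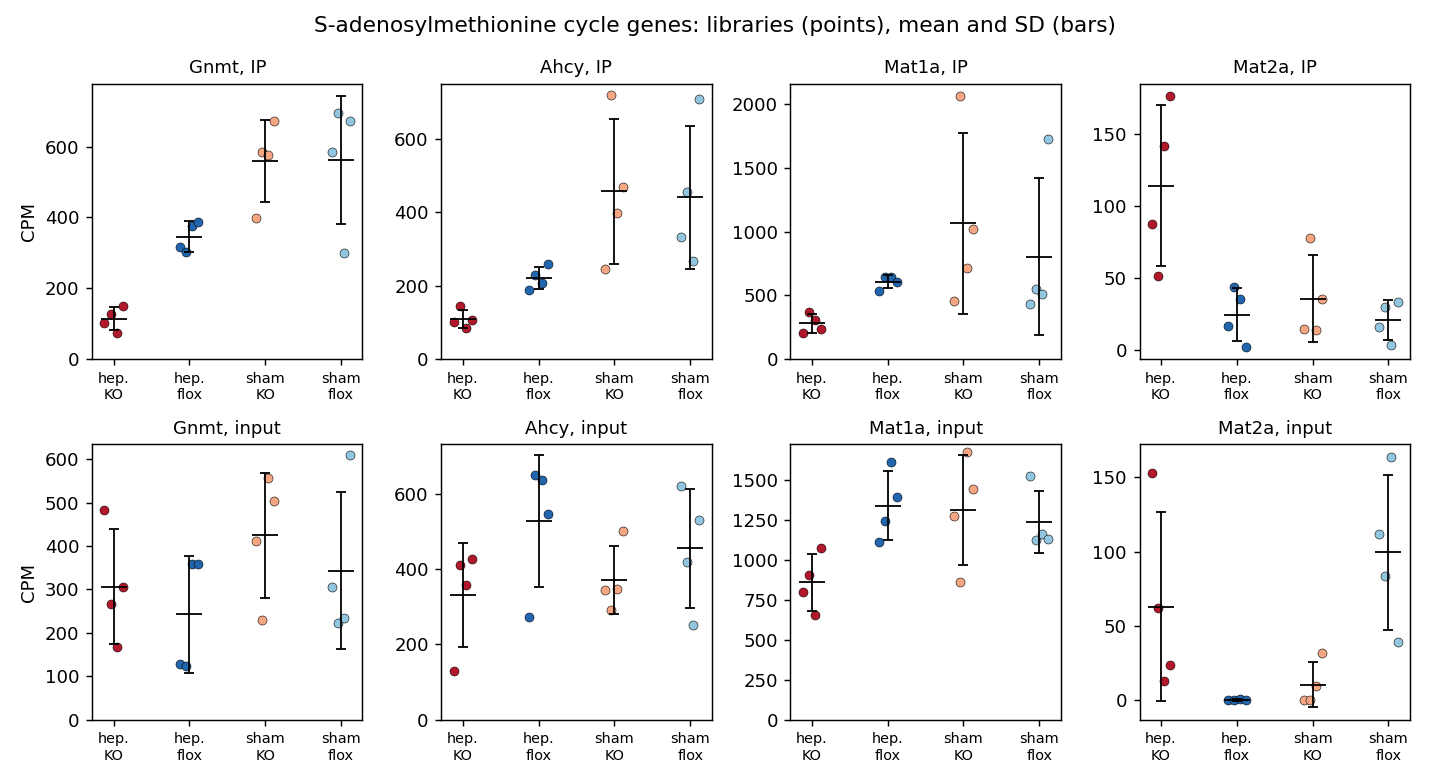
CPM of Gnmt, Ahcy, Mat1a and Mat2a in each library (points) with the mean and SD of each group of 4, IP in the upper row and input in the lower. In IP the hepatectomy KO points of Gnmt, Ahcy and Mat1a lie below all hepatectomy flox points, and those of Mat2a above them. The share of all genes without overlap was not counted.

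The other lists gave no call. Of 7 further methyltransferase and writer genes, among them the scaffold subunit gene Virma, 0 of 7 tested in IP were called between KO and flox after hepatectomy (1.5% of all genes; median log2 change -0.11, all genes 0.01) or after sham surgery (0.0927%; median 0.03, all genes 0.16). Virma itself had a log2 change of -0.81 (SE 0.61) in IP after hepatectomy. Of 11 reader genes, which bind the mark, 9 were tested and 0 called, with medians of 0.24 after hepatectomy and -0.18 after sham surgery. The shares of all genes called were again 1.5% after hepatectomy and 0.0927% after sham surgery, and the medians of all genes 0.01 and 0.16. After hepatectomy 2 of the 9 readers had an unadjusted p under 0.05 by edgeR, as did 1866 of all 14020 genes tested. Hnrnpa2b1, an RNA-binding protein of the nucleus, had IP levels of 155, 278, 115 and 267 CPM in hepatectomy KO and 75.8, 50.9, 72.4 and 113 CPM in hepatectomy flox livers (log2 change 1.11, SE 0.40, adjusted p = 0.201 by edgeR). Ythdf3, a cytoplasmic reader, had 202, 163, 188 and 211 CPM in hepatectomy KO and 298, 299.6, 298 and 269 CPM in hepatectomy flox livers (-0.88, SE 0.36, adjusted p = 0.254 by edgeR). The groups did not overlap for either gene, and neither passed the test. Both were picked after their values were seen, and the share of all genes without overlap was not counted.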

How the data were processed

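Fastp and STAR are the tools named in the submitters' processing notes, without versions. The counting program, its strand setting and the build are not given here. Values in the deposited table are estimated counts per gene, unscaled, and 1.33% to 8.22% of the values in a column were not whole; all were rounded. Genes were named by position against RefSeq GRCm38.p6, which named 33239 of 55421 genes (949 after a shift of 1000000 bases). Rbm15 was named through its start site.

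The tests were edgeR 4.0.16 quasi-likelihood tests (TMM factors, filterByExpr with a minimum count of 10, 1 coefficient a group) over 16 input, 16 IP or all 32 libraries, with DESeq2 1.42.0 as the other tool and 95% intervals. Mettl14 had an exact permutation test over animals. Scripts were tested on simulated data. The replicates are separate animals by label. The members and lists were chosen with earlier results of these data known. Named genes were the 9 genes, called members of the lists (up to 4 a list and comparison), Mat2a as the METTL16 target, and the genes most like a member by Pearson r of log2(CPM + 1). Virma, Hnrnpa2b1 and Ythdf3 were chosen after their values were seen. Both libraries of an animal are paired by their labels, and their correlation after removal of group means was -0.19 to 0.22 across 397 genes, which are not independent replicates.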

Additional observations from a re-analysis of the deposited data

Results flagged for a closer look

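In 13 of 63 groups of 4 libraries, 1 library lay far from the other 3 for one of the genes. The cutoff is meant to flag about 1 in 20 groups by chance, but that rate does not hold where many values are 0. An examined group with 3 libraries at 0 and 1 above 0 is always flagged, so 13 was not set against a number expected by chance. All 13 were high. In IP they were Mettl14 in hepatectomy KO replicate 2 (3.08 CPM, the other 3 at 0), Alkbh5 in hepatectomy KO replicate 4 (191 CPM, the others 43.9 to 62.8) and Zc3h13 in sham flox replicate 3 (460 CPM, the others 147 to 189).

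The other 10 were in input. In hepatectomy KO livers they were Cbll1 in replicate 2 (15.9 CPM), Mettl16 in replicate 2 (38.0 CPM) and Fto in replicate 1 (112 CPM). In hepatectomy flox livers they were Mettl16 in replicate 4 (95.1 CPM) and Fto in replicate 3 (28.7 CPM), each with the other 3 libraries at 0. In sham KO livers Mettl3 (8.53 CPM) and Mettl16 (14.1 CPM) stood out in replicate 3, Cbll1 in replicate 1 (300.4 CPM, the others 71.7 to 107) and Fto in replicate 2 (120 CPM). In sham flox livers Cbll1 stood out in replicate 1 (83.1 CPM, the others at 0).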

How the results depend on the processing

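Over the 19 comparisons, no alternative of edgeR (no TMM factors, upper-quartile factors, no filter, a replicate block, leaving out the sham flox animals aged 77 days or each replicate) added a call among the 9 genes. The 1 call, Cbll1 in IP over input of hepatectomy flox livers, became 0 calls with no TMM factors, with upper-quartile factors, with the animal as a replicate block and without each hepatectomy flox replicate (0 to 0), and was kept with no filter and with DESeq2. With DESeq2 the count of genes called was 1 in input for KO against flox after hepatectomy and 1 for hepatectomy against sham in flox (Cbll1 both times), and 2 in IP over input of sham flox livers. For the difference in IP over input it was 1 for KO against flox after sham surgery (Mettl16), 1 after hepatectomy (Cbll1), 1 for hepatectomy against sham in KO (Cbll1), 2 in flox (Mettl16 and Cbll1) and 1 for the interaction (Mettl16). The Mettl14 difference was -1.53 to -0.37 CPM without each IP library in turn and -1.37 CPM with TMM-scaled totals. Replicate numbers across groups were not taken to pair the animals in the main tests. The correlations of same-numbered libraries were -0.21 to 0.46 and not all above 0.1. Between sham KO and sham flox they were 0.033 to 0.46 in IP (mean of other numbers -0.088) and -0.090 to 0.030 in input. Whether same-numbered libraries share a batch was not tested. The low genes gave limited tests: Mettl3, Mettl14 and Mettl16 did not pass the filter of the input tests, and their IP intervals span several log2 units. What part library totals and values at 0 had in this was not tested.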
